A study of Mus musculus with 8 samples.

Results

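Macrophages are the main immune cells of the testis. Those of the interstitium lie among the Leydig cells and carry the CSF1 receptor and the mannose receptor, and those along the seminiferous tubules carry MHC class II molecules. They clear dying cells and debris, take part in the immune tolerance of the tissue, and are known to influence steroid production by Leydig cells. Expression of 10 testis macrophage genes, picked by symbol from the 23983 genes of an expression table, is described here over testis development. They are Csf1r, Cd68, Mrc1, Cd163, C1qa, C1qb, C1qc, Lyz2, H2-Aa and Cd74, and all 10 were found.

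RNA-seq was done on total RNA from whole testis tissue of C57BL/6J mice of ages d12, d16, d24 and adult. Each stage had 1 strand-specific paired-end library. The first wave of spermatogenesis passes through meiosis and into the haploid phase over these ages, and the question was how RNA levels follow it. Values are FPKM as deposited, which are fragments divided by transcript length and by a library total. Since each stage has 1 library, no difference between stages has a replicate check, and all intervals are 95% intervals that cover counting error only.

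The fragments behind the values were read from the values themselves. For genes with 1 curated transcript, FPKM times length is in most cases close to a whole multiple of the value of 1 fragment, which at a length of 1 kb came to 0.0799 FPKM (d12), 0.0800 (d16), 0.0455 (d24) and 0.112 (adult). This gave 8910413 fragments on genes on d12, 9450333 on d16, 23689457 on d24 and 12053916 in the adult. The 10 genes together held 1674, 1736, 2823 and 1236 of these fragments, so they were a small part of each library. The d24 library was the deepest, and the adult library had the fewest fragments on the 10 genes.

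All 10 genes were above 0 FPKM in all 4 libraries, with H2-Aa on d16 resting on 3 fragments. Emr1, the gene of the macrophage surface protein F4/80, was at 1.99 FPKM on d12, 1.55 on d16, 1.37 on d24 and 1.69 in the adult, so a defining marker outside the 10 was found at every stage. Most markers of neutrophils, T and NK cells and mast cells were low or absent. None had a mean of at least 1 FPKM over the 4 libraries. Of the monocyte, dendritic cell and B cell genes found, 2 of 6, 1 of 6 and 1 of 5 reached this mean. Plac8, Zbtb46 and Pax5 were the most abundant of these lists. Of 5 neutrophil genes in the table, S100a8, S100a9, Elane and Camp were at 0 in every library, and Mpo reached 1.06 FPKM in the adult. The 6 T and NK cell genes summed to 3.75 FPKM on d12, 0.662 on d24 and 1.51 in the adult, of which Cd3e, part of the T cell receptor complex, held 1.67 FPKM on d12 and 0.703 in the adult. On d12, Cd3e and Cd3g (1.33 FPKM) were above Cd163, Cd74 and H2-Aa, which were at 0.851, 0.831 and 0.747 FPKM. The 6 mast cell genes summed to 1.22 FPKM on d12, 0.571 on d16, 0.297 on d24 and 0.104 in the adult. Cpa3, a mast cell protease, led them up to d24 and was at 0 in the adult.

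Up to d24, the 10 genes fell into a high, a middle and a low group. Lyz2, which encodes the lysozyme of myeloid cells, was the highest in every library, at 19.9 FPKM on d12 (17.6 to 22.5), 26.4 on d16 (23.7 to 29.3), 21.3 on d24 (19.5 to 23.3) and 22.2 in the adult (19.3 to 25.4). Mrc1, the mannose receptor that takes up glycoproteins, followed at 15.2 FPKM on d12 (14.3 to 16.2), 14.4 on d16 (13.5 to 15.3), 14.9 on d24 (14.2 to 15.6) and 16.2 in the adult (15.1 to 17.4). Both were present at all stages. As deposited, Mrc1 had the narrowest range of the 10, with its highest value 1.13 times its lowest. For Lyz2 this ratio was 1.32, and d16 was above the next stage in order, adult, by 1.19-fold, with an interval that starts just above 1 and ends at 1.42. These ranges depend on the scaling, since by FPKM sum, upper quartile and own fragments the log2 change from d12 to adult was -1.12, -0.67 and -0.83 for Mrc1 and -1.06, -0.61 and -0.77 for Lyz2.

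Csf1r, the receptor for the growth factors CSF1 and IL34 on which macrophages depend, was in the middle group, at 2.82 FPKM on d12 (2.37 to 3.34), 3.41 on d16 (2.91 to 3.97), 2.61 on d24 (2.28 to 2.97) and 2.00 in the adult (1.55 to 2.53). From highest to lowest its order was d16, d12, d24 and adult, and as deposited no 2 neighbours in this order differed beyond counting error. Stages further apart in it did, since the adult level was 0.707 times that on d12 (0.522 to 0.951), a log2 change of -0.48, and by FPKM sum, upper quartile and own fragments it passed 2-fold (-1.64, -1.22 and -1.36). Cd68, a glycoprotein of late endosomes and lysosomes, was at 2.63 FPKM on d12 (1.75 to 3.86), 3.91 on d16 (2.81 to 5.36), 3.14 on d24 (2.37 to 4.07) and 1.98 in the adult (1.06 to 3.24). Its highest and lowest stages, d16 and adult, were the same as those of Csf1r, and its level relative to Csf1r within a library was 0.930 on d12, 1.15 on d16, 1.20 on d24 and 0.991 in the adult.

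C1qa, C1qb and C1qc encode the 3 chains of C1q, the recognition part of the classical complement pathway, which in most tissues is made by macrophages. C1qa was at 4.58 FPKM on d12 (3.51 to 5.87), 5.32 on d16 (4.17 to 6.70), 3.49 on d24 (2.78 to 4.33) and 2.28 in the adult (1.43 to 3.45). C1qb was at 5.41 FPKM on d12 (4.27 to 6.80), 4.67 on d16 (3.57 to 5.92), 4.24 on d24 (3.47 to 5.15) and 4.75 in the adult (3.51 to 6.35). Fragments of C1qb, Cd68 and some Cd74 values did not come out whole and were rounded, so their intervals are approximate. C1qc was at 1.89 FPKM on d12 (1.23 to 2.80), 3.11 on d16 (2.23 to 4.22), 3.02 on d24 (2.36 to 3.82) and 2.77 in the adult (1.81 to 4.05). The 3 chains, which assemble in equal number, were thus not at equal FPKM throughout. C1qc was below C1qb beyond counting error on d12, on d24 and in the adult, and C1qa was below C1qb in the adult only. As deposited, no neighbours in the order of stages of any chain differed beyond counting error. By FPKM sum, upper quartile and own fragments the log2 change of C1qb from d12 to adult was -1.38, -0.94 and -1.09, below its interval as deposited. C1qa over C1qb within a library was 0.845 on d12 (0.594 to 1.20), 1.14 on d16 (0.803 to 1.62), 0.823 on d24 (0.609 to 1.11) and 0.480 in the adult (0.275 to 0.812). The adult ratio did not differ beyond counting error from that on d24 (0.583 times, 0.309 to 1.08) or d12 (0.568 times, 0.293 to 1.08) but was below that on d16 (0.421 times, 0.218 to 0.804). C1qc over C1qb was 1.90 times as high on d16 as on d12, with an interval that starts just above 1 and ends at 3.64.

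The low group held Cd163, the scavenger receptor for haemoglobin bound to haptoglobin, and both genes of antigen presentation, of which Cd74 was among the middle genes in the adult. Cd163 was at 0.851 FPKM on d12 (0.625 to 1.13), 0.653 on d16 (0.457 to 0.904), 0.248 on d24 (0.159 to 0.369) and 0.966 in the adult (0.684 to 1.33). Its d24 value stood below all other stages beyond counting error. H2-Aa, the alpha chain of the MHC class II molecule I-A, was at 0.747 FPKM on d12 (10 fragments, 0.358 to 1.37), 0.224 on d16 (3 fragments, 0.0463 to 0.656), 0.511 on d24 (12 fragments, 0.264 to 0.893) and 1.15 in the adult (11 fragments, 0.576 to 2.06). No neighbours in its order of stages could be told apart at this depth. Of stages further apart, the adult level as deposited was 5.14 times that on d16 (1.36 to 28.7), which rests on the 3 fragments on d16. Cd74, the invariant chain that escorts class II molecules to the endosome, was at 0.831 FPKM on d12 (0.452 to 1.45), 0.720 on d16 (0.359 to 1.29), 0.752 on d24 (0.455 to 1.15) and 2.93 in the adult (2.01 to 4.14). The adult library was the high one for Cd74, and the others did not differ beyond counting error. Of the 30 pairs of neighbouring stages over the 10 genes as deposited, 3 had a ratio interval above 1, which were d16 over d24 for Cd163, d16 over adult for Lyz2 and adult over d12 for Cd74. Neighbours in the order of stages are the closest values by construction. As deposited, some stages further apart differed beyond counting error for all genes but C1qb and C1qc. For C1qa, the d16 level was 2.33 times that in the adult (1.43 to 3.95). Pairs of either kind were not counted under the other scalings.

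**Figure D1:**
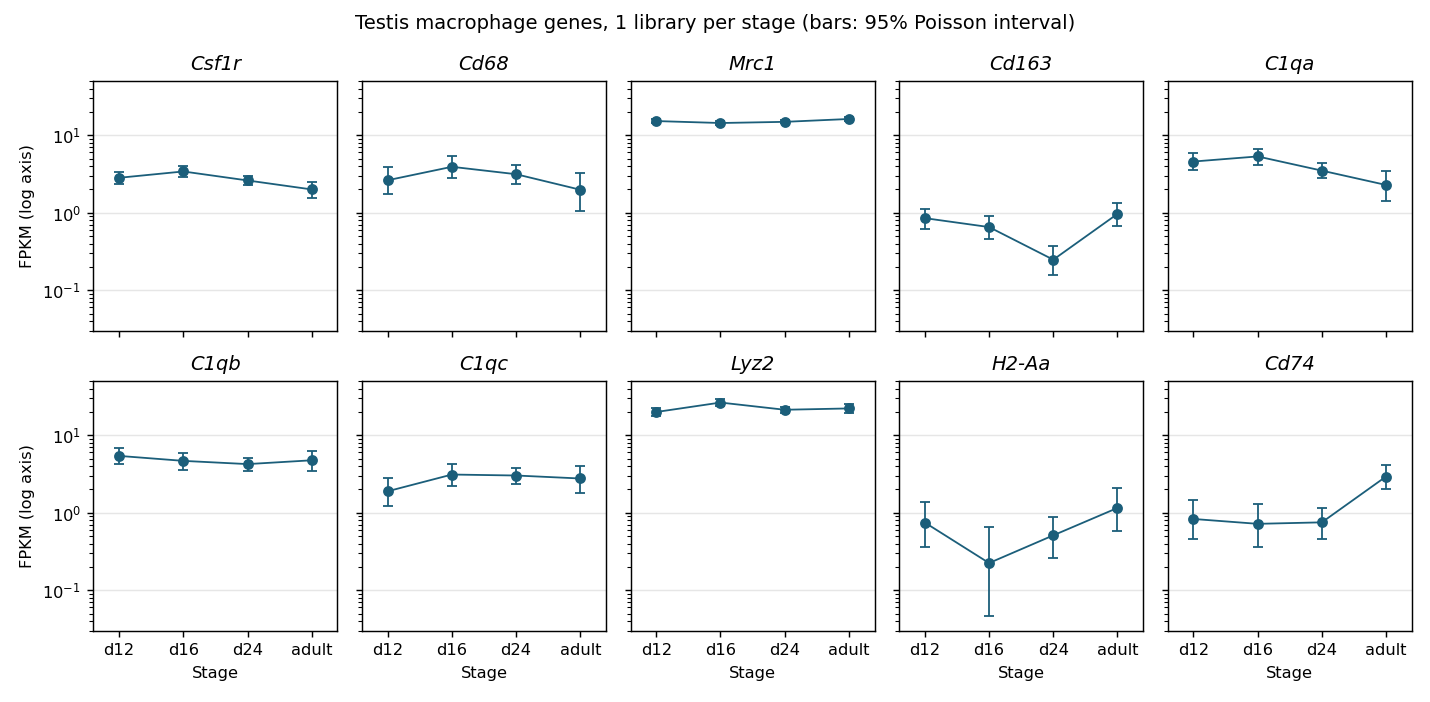
FPKM of each of the 10 testis macrophage genes (vertical axis, logarithmic) in the d12, d16, d24 and adult libraries (horizontal axis), with points for 1 library each and bars for the exact 95% Poisson interval of its fragments. Lyz2 and Mrc1 lay at 14.4 to 26.4 FPKM at all stages, Cd163 was lowest on d24 with 0.248 FPKM, and Cd74 was highest in the adult with 2.93 FPKM.

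Summed over the 10 genes, the level was 54.9 FPKM on d12, 62.8 on d16, 54.2 on d24 and 57.2 in the adult. Lyz2 and Mrc1 made up most of it, with 36.3% and 27.7% of the sum on d12 and 38.8% and 28.3% in the adult. As a share of each library's own fragments on genes, the 10 genes went from 188 per 1000000 on d12 and 184 on d16 to 119 on d24 and 103 in the adult. The deposited values are scaled between libraries by factors other than each library's own fragments, so a level that is flat on one scale is not flat on the other. In bulk tissue, fewer macrophages, less RNA per macrophage and more RNA from other cells cannot be told apart, and none of these was tested.

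Changes between stages were read on log2(FPKM + 0.1), which understates the change of low genes, and a gene was called when it passed 2-fold. Of the 10 genes, 8 had a mean of at least 1 FPKM over the 4 libraries, the filter used for the 13901 genes of the background. Cd163 and H2-Aa did not, so the counts below are over all 10 and not over those that passed. From d12 to d16, none of the 10 was up and 1, H2-Aa, was down, while 12.6% of all genes were up and 3.67% were down. The H2-Aa ratio was 0.301, with an interval that includes 1 (0.0532 to 1.17). The median log2 change of the 10 genes was 0.07, and negative with libraries at the same FPKM sum (-0.05), by upper quartile (-0.09) or by own fragments (-0.02), and that of all genes was 0.00, and -0.11, -0.15 and -0.08 under these scalings.

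From d16 to d24, none of the 10 genes was up and 1, Cd163, fell to 0.379 times its d16 level (0.216 to 0.654), while 27.5% of all genes were up and 8.45% were down. Its log2 change was -1.11, and the call was lost only with a pseudocount of 1 FPKM, among 6 alternatives. The median log2 change was -0.22 for the 10 genes and 0.13 for all genes, and by FPKM sum, upper quartile and own fragments it was -0.83, -0.66 and -0.72 for the 10 genes and -0.48, -0.31 and -0.37 for all genes. In this step, in which the spermatid genes came on, Csf1r at 0.766 times its d16 level (0.623 to 0.942), C1qa at 0.656 (0.473 to 0.912) and Lyz2 at 0.807 (0.702 to 0.928) had intervals below 1 without passing 2-fold as deposited. C1qa passed it by FPKM sum, upper quartile and own fragments, at log2 changes of -1.20, -1.03 and -1.10.

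From d24 to adult, 3 of the 10 genes were up and none was down, while 11.4% of all genes were up and 2.2% were down. By FPKM sum 2 were down, Cd68 and C1qa, at log2 changes of -1.08 and -1.04, beside 9.83% of all genes. Cd74 rose 3.90-fold (2.19 to 7.27), and this call held under all 6 alternatives of scaling and pseudocount. Cd163 also rose 3.90-fold (2.28 to 6.80), to a level that as deposited did not differ from d12 beyond counting error (log2 changes of -0.92, -0.53 and -0.67 by FPKM sum, upper quartile and own fragments), and lost its call only with a pseudocount of 1 FPKM. H2-Aa passed 2-fold with a ratio of 2.26, but its interval includes 1 (0.903 to 5.59), and 5 of the 6 alternatives put it under 2-fold. The median log2 change was 0.09 for the 10 genes, which turned negative under the 4 other scalings (-0.39 by FPKM sum, -0.23 by own fragments, -0.07 by upper quartile and -0.01 by median ratio), and -0.02 for all genes, which went to -0.49, -0.34, -0.17 and -0.12 in the same order.

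From d12 to adult, 1 of the 10 genes, Cd74, was up and none was down, while 35.7% of all genes were up and 23.1% were down. By FPKM sum, upper quartile and own fragments, 0 of the 10 were up and 6, 3 and 4 were down, beside 49.8%, 40.2% and 43.6% of all genes down. Cd74 was 3.53-fold higher in the adult (1.76 to 7.18), and C1qa, at 0.498 times its d12 level (0.292 to 0.822), was at a log2 change of -0.97, short of the call as deposited but past it by FPKM sum (-2.14), upper quartile (-1.72), own fragments (-1.87) and median ratio (-1.17) and with a pseudocount of 0.01 FPKM. The median log2 change was 0.12 for the 10 genes, negative under the 4 other scalings, and 0.20 for all genes. For the 10 genes it was -1.09 with libraries at the same FPKM sum, -0.64 by upper quartile and -0.80 by own fragments, where the median of all genes was itself below 0, at -0.56 by upper quartile, -0.71 by own fragments and lower still by FPKM sum. With the libraries divided by their median ratio, the 10 genes had a median of -0.08. Cd74 was under 2-fold with the FPKM sum, the upper quartile and own fragments, and stayed above 1-fold in each.

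A ratio of genes within 1 library does not depend on the scaling between libraries. H2-Aa and Cd74 summed over Csf1r was 0.559 on d12 (0.343 to 0.874), 0.277 on d16 (0.148 to 0.478), 0.484 on d24 (0.323 to 0.704) and 2.05 in the adult (1.37 to 3.04). This sum was thus below Csf1r in the libraries of young testes and above it in the adult, while H2-Aa alone was below Csf1r in every library, at 0.578 times its level in the adult, with an interval that includes 1. The ratio was 4.23 times as high in the adult as on d24 (2.40 to 7.45) and 3.66 times as high as on d12 (1.97 to 6.88). With H2-Aa alone over Csf1r, the adult ratio was 2.95 times that on d24 (1.12 to 7.64) and 2.18 times that on d12 (0.796 to 6.02), so much of the difference from d12 rested on Cd74. With H2-Aa over Mrc1, these factors were 2.07 and 1.45, with intervals that include 1. Mrc1 over Csf1r was 5.39 on d12, 4.22 on d16, 5.70 on d24 and 8.11 in the adult (6.33 to 10.5), and the adult value was above that on d12, with the interval of the fold above 1 and ending at 2.07. Lyz2 over Csf1r likewise was 7.06, 7.75, 8.17 and 11.1, and the adult value was 1.57 times that on d12, with the interval above 1 and ending at 2.25. C1qc over Csf1r was 2.06 times as high in the adult as on d12 (1.06 to 4.03) and Cd74 over Csf1r 4.99 times, with an interval that starts at 2.35. For Cd163 (0.924 to 2.77), C1qb (0.757 to 2.03), Cd68 (0.484 to 2.26) and C1qa (0.380 to 1.28) the interval of this fold includes 1. From d16 to adult the fold of C1qb over Csf1r was 1.74 (1.05 to 2.85), while the interval for Cd68 again included 1.

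**Figure D2:**
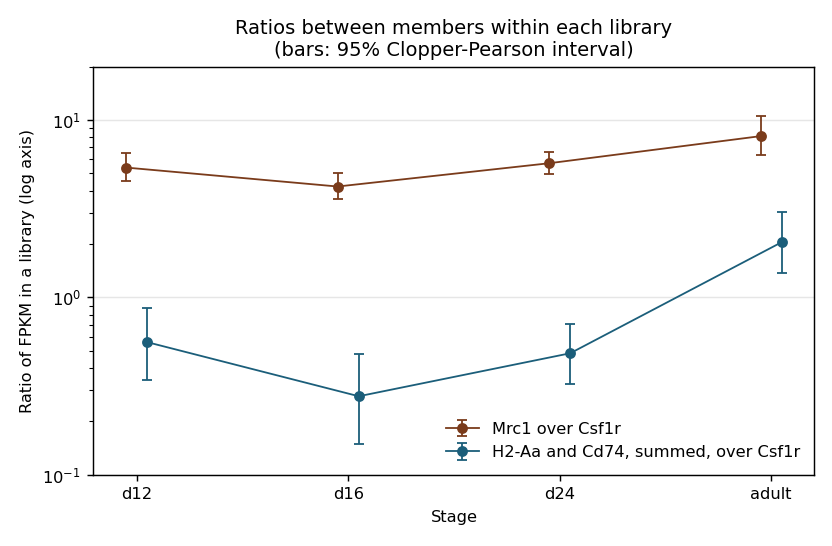
Ratio of FPKM between members within each library (vertical axis, logarithmic) on d12, d16, d24 and in the adult (horizontal axis), with exact 95% Clopper-Pearson intervals as bars. H2-Aa and Cd74 summed over Csf1r lay between 0.277 and 0.559 up to d24 and at 2.05 in the adult, and Mrc1 over Csf1r lay between 4.22 and 8.11.

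The other genes of the class II pathway were read beside H2-Aa and Cd74. Of 8, 3 were up and 1 was down from d12 to adult, and 2 were up and 1 was down from d24 to adult, beside 35.7% up and 23.1% down and then 11.4% up and 2.2% down over all genes. With the FPKM sum, upper quartile or own fragments, 2 were up and 2 were down from d12 to adult, beside 23.2%, 26.8% and 25.5% of all genes up and 49.8%, 40.2% and 43.6% down. H2-Ab1, the beta chain that pairs with H2-Aa, was the most abundant, at 3.75 FPKM on d12 (2.83 to 4.87), 3.15 on d16 (2.32 to 4.19), 7.33 on d24 (6.33 to 8.44) and 9.31 in the adult (7.56 to 11.3). It rose 2.32-fold from d16 to d24 (1.68 to 3.27), a step earlier than Cd74, but was under 2-fold in that step with libraries scaled by FPKM sum, upper quartile or own fragments. It was far above H2-Aa in every library, with ratios of 5.02, 14.0, 14.3 and 8.06, so both chains of I-A were not at matched levels. H2-Eb1, the beta chain of I-E, was at 1.34 FPKM on d12, 0.336 on d16, 0.382 on d24 and 1.55 in the adult, and it rose 4.05-fold from d24 to adult (2.00 to 8.51). H2-DMa, part of the molecule that loads peptides, rose 2.87-fold from d24 to adult (1.80 to 4.62), and by 0.96 on the log2 scale with libraries at the same FPKM sum. Ciita, the master activator of class II transcription, was at 0.0768 FPKM on d12 and at 0 in the adult, with an interval that reaches 0.0801, so its course could not be read at this depth.

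Of 20 other macrophage genes, 5 were up and 2 were down from d12 to adult, beside 35.7% and 23.1% of all genes. By FPKM sum, upper quartile and own fragments, 8, 5 and 6 were down, beside 49.8%, 40.2% and 43.6% of all genes. Under the same scalings 3, 5 and 5 of the 20 were up, beside 23.2%, 26.8% and 25.5% of all genes. The median log2 change of the 20 was 0.23, but -0.80, -0.41 and -0.54 under these scalings, so its direction depended on the scaling like that of the 10 genes. Mpeg1, a pore-forming protein of macrophages, was at 3.50 FPKM on d12, 4.83 on d16, 3.02 on d24 and 2.79 in the adult, and Tyrobp, a signalling adaptor of myeloid receptors, at 1.83, 2.12, 1.53 and 1.78. Ctss, the cathepsin that cleaves CD74, was at 6.59, 9.72, 6.87 and 8.34 FPKM, and so did not follow the adult rise of Cd74. Other genes of the list did not stay level. Aif1 was at 1.19 FPKM on d12, with less on d16, but at 100.5 on d24 and 459.9 in the adult, and Msr1, a scavenger receptor, was at 0.468, 0.373, 2.24 and 6.29. All 6 elongating spermatid genes were also up from d16 to d24 and from d24 to adult, beside 27.5% and 11.4% of all genes. Among them, Odf1 was at 99.6 FPKM on d24 and 565.1 in the adult. Which cells held the Aif1 RNA was not tested. Fcgr3, an Fc receptor, rose 4.60-fold from d12 to d16 (3.29 to 6.41). With Aif1 the list summed to 35.0 FPKM on d12 and 508.5 in the adult, and without it to 33.9 and 48.6, so most of the difference in the sum was that of Aif1.

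The resident-type macrophage genes, which mark long-lived tissue macrophages, were read in the same way. Of 10, none was up and 2, Lyve1 and Maf, were down from d12 to adult, beside 35.7% up and 23.1% down over all genes, and their median log2 change was -0.59. By FPKM sum, upper quartile, own fragments and median ratio, 8, 6, 7 and 4 of them were down, and 6, 3, 4 and 1 of the 10 macrophage genes, beside 49.8%, 40.2%, 43.6% and 27.7% of all genes. Lyve1, a hyaluronan receptor also found on lymphatic endothelium, went from 3.37 FPKM on d12 to 1.99 on d16, 0.698 on d24 and 0.0860 in the adult. Maf, a transcription factor also found outside macrophages, went from 6.14 to 3.16, 1.30 and 1.66. Folr2, a folate receptor of resident macrophages, was at 2.22, 2.59, 1.68 and 2.18 FPKM and as deposited passed 2-fold in no step. F13a1, a clotting factor chain made by such macrophages, was the most abundant in every library, at 7.04, 7.82, 5.26 and 4.57.

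Among ligands and regulators of Csf1r, Csf1 was at 2.95 FPKM on d12, 3.65 on d16, 1.71 on d24 and 2.43 in the adult. It fell to 0.469 times its d16 level on d24 (0.348 to 0.626), the step in which Csf1r was at 0.766 times its d16 level. Il34, the other ligand, had no more than 5 fragments in any library. Spi1, which encodes the myeloid factor PU.1, had between 1 and 6 fragments per library. Of the 9 genes of this list, 2 were up and 1 was down from d12 to adult, beside 35.7% and 23.1% of all genes, while under the 4 other scalings at most 1 was up and between 2 and 6 were down, beside 27.7% to 49.8% of all genes down. Among 10 further complement genes, 2 were up and 3 were down beside the same shares of all genes, and between 3 and 6 were down under the other scalings, where the shares of all genes down are those just given. C1ra and C1s1, the proteases that bind C1q, were at 14.3 and 39.2 FPKM on d12 and fell to 0.350 (0.285 to 0.428) and 0.335 (0.297 to 0.377) times these levels in the adult.

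Lists of other testis cells changed between the same libraries. From d12 to adult, 5 of 6 Sertoli genes, 4 of 6 peritubular myoid genes, 3 of 6 endothelial genes and 5 of 6 spermatogonial genes were down and 1 myoid gene, Actg2, was up, beside 23.1% of all genes down and 35.7% up, with median log2 changes of -1.78, -1.26, -0.97 and -2.16. Of 6 Leydig genes, 3 were up and none was down, with a median log2 change of 1.30. By FPKM sum, upper quartile and own fragments 1 was down, beside 49.8%, 40.2% and 43.6% of all genes. Under the same scalings 1, 3 and 3 Leydig genes were up, beside 23.2%, 26.8% and 25.5% of all genes. With libraries at the same FPKM sum the Leydig median was 0.09 on the log2 scale, and the other 4 lists were lower still. The Sertoli genes, of which Cldn11 was the most abundant, summed to 175.7 FPKM on d12, 132.8 on d16, 81.0 on d24 and 60.6 in the adult, and the sum of the 10 macrophage genes over this sum went from 0.313 to 0.473, 0.669 and 0.943. Over the Leydig sum, which Insl3 led in the adult and which was 131.6, 82.4, 153.4 and 580.7 FPKM, it was 0.417, 0.762, 0.353 and 0.0985. On any scaling, the macrophage sum was therefore higher in the adult than on d12 relative to the Sertoli sum, and lower relative to the Leydig sum. Single genes can differ from the sum of their list, as the Leydig gene Star was at 18.8 FPKM on d12 and 15.1 in the adult. The peritubular myoid list summed to 257.5, 210.9, 151.7 and 307.6 FPKM, with Acta2 the most abundant up to d24 and Actg2, at 225.0 FPKM, in the adult, the endothelial list to 22.5, 15.1, 7.74 and 9.52 with Cdh5 first up to d24, and the spermatogonial list to 289.0, 169.4, 86.8 and 62.1 with Uchl1 first. No Leydig, myoid, endothelial or spermatogonial marker was at 0 in any library, and 1 Sertoli marker was at 0 in the adult.

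RNA of spermatocytes and spermatids was higher in the adult than on d12. The 6 pachytene spermatocyte genes summed to 462.5 FPKM on d12, 1621 on d16, 4117 on d24 and 4855 in the adult, where Sycp3 led on d12 and d16 and Ldhc on d24 and in the adult. The 6 round spermatid genes, led by Acrv1 in the adult only, summed to 3.54, 14.8, 471.4 and 1105, and the 6 elongating spermatid genes, led by Prm2, to 13.2, 4.45, 2363 and 26392. Blood differed too, with Hba-a1, an alpha globin, at 236.2 FPKM on d12, 50.6 on d16, 52.8 on d24 and 59.4 in the adult, and the 5 erythroid genes found at a sum of 263.4, 67.3, 62.3 and 65.1. Between d12 and d16, where Hba-a1 went from 236.2 to 50.6 FPKM, the sum of the 10 macrophage genes went from 54.9 to 62.8 FPKM. The part of these cell types in the levels of the 10 genes was not tested.

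**Figure D3:**
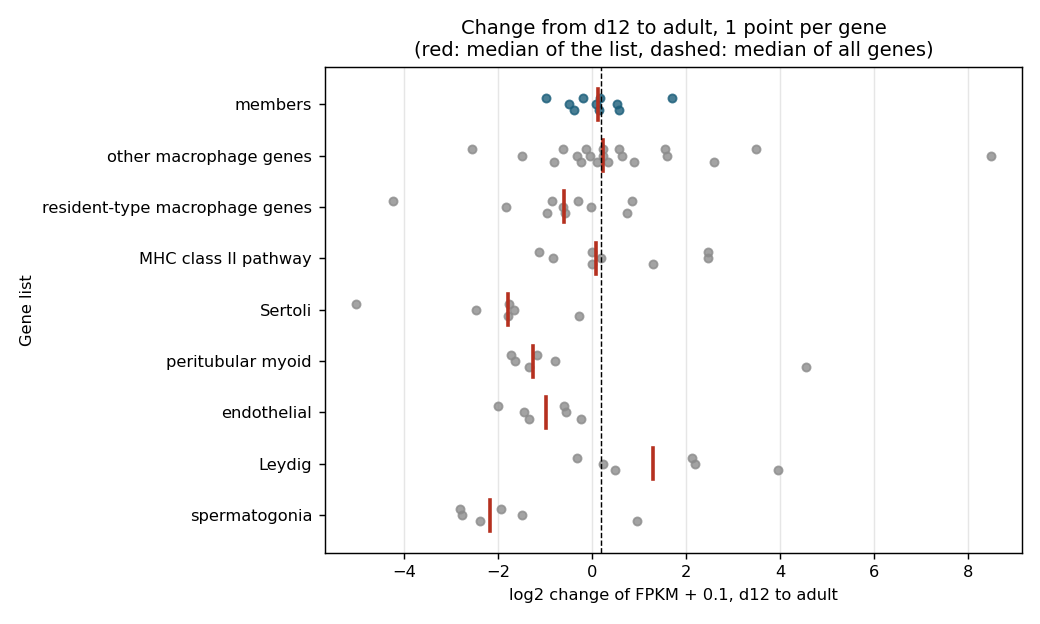
Change of log2(FPKM + 0.1) from d12 to adult (horizontal axis) for each gene of 9 gene lists (vertical axis), with 1 point per gene, a red line at the median of each list and a dashed line at the median of all 13901 genes. The 10 macrophage genes lay between -0.97 and 1.70 around a median of 0.12, while the Sertoli and spermatogonial medians were -1.78 and -2.16 and the Leydig median was 1.30. Values are as deposited, and the median of the 10 genes was negative under the 4 other scalings.

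On the GRCm38 build, the 3 C1q genes lie side by side on the minus strand of chromosome 4 within 18719 bases, from 136880126 to 136898844. C1qb runs from 136880126 to 136886200, C1qc from 136889801 to 136892936 and C1qa from 136895916 to 136898844, each with 3 exons. H2-Aa (34282744 to 34287823, minus strand) lies on chromosome 17 and Csf1r (61105572 to 61131139) and Cd74 (60803849 to 60812652) on the plus strand of chromosome 18. Mrc1 is on chromosome 2 (14229414 to 14332023, plus strand), Cd163 on chromosome 6 (124304636 to 124330529, plus strand), Lyz2 on chromosome 10 (117277541 to 117282272, minus strand) and Cd68 on chromosome 11 (69664213 to 69666170, minus strand). Lyz2 shares 15.4% of its 50-base stretches with its neighbour copy Lyz1, and read assignment could move fragments between them. Lyz1 was at 0.0222 times the Lyz2 level on d12, 0.0383 on d16, 0.0338 on d24 and 0.0360 in the adult. The other 9 genes shared less than 0.1% of such stretches with any gene. Eif4a1, at 255.6 FPKM on d12 and 86.1 in the adult, ends 766 bases upstream of Cd68 on the same strand, and its part in the Cd68 values was not tested. Csf1r and Cd163 overlap the noncoding genes Gm52352 and Gm52877 on the opposite strand, and the part of these in the values was not tested.

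The genes outside all lists with the profile closest to the 10 genes were sought among 9483 genes whose mean reached 5 FPKM, by Euclidean distance of centred log2 values over the 4 libraries. Closest to the median profile of the 10 were Akirin1 (distance 0.0790), Dhx36 (0.0845), Osbpl8 (0.0862), Gak (0.0976) and Gadd45gip1 (0.0982), and 1860 genes lay within a distance of 0.5. Closest to Csf1r were Zc3hc1 (0.0444), Nup85 (0.0494), G3bp1 (0.0494), Rps27l (0.0571) and Ap1ar (0.0594), and 1548 genes lay within 0.5. With 4 libraries, profiles this flat were common. Gapdh, a glycolytic enzyme gene often used as a reference, was at 68.9 FPKM on d12, 42.6 on d16 and 19.1 on d24, with a log2 change of -1.78 from d12 to adult, so the 10 genes were higher relative to it in the adult.

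The promoters of H2-Aa and other class II pathway genes were read for the Y box, an element of class II promoters. The RefSeq promoter windows of GRCm38.p6, 250 bases before to 50 after the start of transcription, held 7 of the 10 genes. The letters CTGATTGG, searched on both strands, were found in 4.70% of 27025 genes, in 1 of the 7 genes, H2-Aa, in 2 of 6 class II pathway genes, H2-Eb1 and H2-Oa, and in 0 of 15 other macrophage genes. The match began 51 bases before the start of transcription in H2-Aa (chr17:34287856-34287885, minus strand), 62 in H2-Eb1 (chr17:34305794-34305823, plus strand) and 46 in H2-Oa (chr17:34092322-34092351, plus strand). The 30 bases around each match are shown with the Y box core in capitals.
H2-Aa: aagagaattttCTGATTGGttctggcgagt
H2-Eb1: ctcctttgatgCTGATTGGctcccagcact
H2-Oa: agagaactgctCTGATTGGctgcttaccgc
The letters GAGGAA on either strand, a core bound by PU.1, were in 31.3% of all genes, in 4 of the 7 macrophage genes, Cd68, Mrc1, C1qb and C1qc, in 11 of 15 other macrophage genes and in 1 of 6 class II pathway genes. Such a match describes the letters of a window and does not show binding.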

How the data were processed

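The authors made strand-specific libraries from testis total RNA (1 per stage), mapped read pairs of 50 bases to the mm10 (GRCm38) genome by TopHat2 2.1.0 using Bowtie 1.1.2, and computed the deposited FPKM values of 23983 RefSeq genes with Cuffdiff of Cufflinks 2.2.1, using multi-read and bias correction. The 4 H3K27Ac samples were not analysed here. From the FPKM values, fragments were recovered with RefSeq transcript lengths (the shortest curated transcript, so those of Cd68 and Cd74 are lower bounds). The H2-Aa length was taken from the values, which were whole multiples of 1 unit at 1069 bases. Within 0.05 of a whole number lay 92.4%, 91.7%, 91.8% and 91.7% of values of up to 20 fragments at d12, d16, d24 and adult. Scipy 1.17.1 under python 3.11.15, with pandas 2.3.3 and numpy 2.4.6, gave exact Poisson and Clopper-Pearson intervals. Intervals of changes in a ratio are exact conditional odds ratio intervals. Fold rules used a pseudocount of 0.1 FPKM, and background genes a mean of at least 1 FPKM. The value of 1 fragment and the 2-fold rule were tested on simulated data. For the rule, a 4-fold rise was given to 200 genes past the filter, and 200 were recovered. This does not show how the rule does near 2-fold or for genes below the filter, such as Cd163 and H2-Aa. Adgre1 was found as Emr1, and Ighm, Ly6g and Hbb-bt were not matched. Named genes were the 10 members, the leading or called genes of the lists, the nearest profiles, neighbours and Gapdh. Members and lists were chosen with earlier results of these data known. Alternatives were other scalings, pseudocounts, folds and filters, and other ratios.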

Additional observations from a re-analysis of the deposited data

How the results depend on the processing

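The changes of the 10 genes over 4 steps gave 40 values, each computed under 6 alternatives. Of these 240 values, 196 stayed within the counting interval of the reported value, 44 moved out of it, and no called change took the other sign. Depth limits H2-Aa most, with 3 to 12 fragments per library. With libraries at the same FPKM sum, the median log2 change of the 10 genes was -0.83 from d16 to d24, -0.39 from d24 to adult and -1.09 from d12 to adult, by upper quartile it was -0.66 from d16 to d24 and -0.64 from d12 to adult, and by own fragments it was -0.72, -0.23 and -0.80. With a pseudocount of 1 FPKM, 0 genes were down from d12 to d16 and from d16 to d24 and 1 was up from d24 to adult. With 0.01 FPKM, 1 was up from d16 to d24 and 1 down from d12 to adult. At 1.5-fold, 1 was up from d12 to d16 and from d16 to d24, 2 were down from d16 to d24 and from d24 to adult, and 1 was down from d12 to adult. No shares of all genes were set beside the counts with these pseudocounts or at 1.5-fold. These counts can therefore not be compared with the background. By FPKM sum, upper quartile or own fragments, 2 were down from d16 to d24 (beside 30.2%, 23.4% and 25.8% of all genes). From d12 to adult 0 were up under these scalings (beside 23.2%, 26.8% and 25.5%) and 6, 3 and 4 were down (beside 49.8%, 40.2% and 43.6%). By FPKM sum 2 were down from d24 to adult (beside 9.83% of all genes). By the median ratio 1 was down from d12 to adult (beside 27.7% of all genes). Without the filter, 5.88% of all genes were down from d12 to d16 and 3.86% from d24 to adult, and with a mean of at least 5 FPKM 1.87% and 0.801%. The summed FPKM at d12, d16, d24 and adult was 78.7, 82.8, 46.6 and 35.2 by FPKM sum, 71.7, 73.4, 46.3 and 43.8 by upper quartile, 72.6, 78.2, 47.3 and 39.8 by own fragments, and 35.0, 36.4, 32.9 and 35.0 without Lyz2. By the median ratio it was 52.8 in adult testis. The scalings differ by construction in what they hold equal, and why the libraries differ was not tested. In place of H2-Aa and Cd74 over Csf1r, H2-Aa over Csf1r was 0.265, 0.0659, 0.196 and 0.578 at d12, d16, d24 and adult, and H2-Aa over Mrc1 was 0.0491, 0.0156, 0.0343 and 0.0713, lower by construction. The folds of these ratios between stages were added after the values were seen. With H2-Aa over Mrc1 they were 2.07 from d24 to adult, 1.45 from d12 to adult and 4.56 from d16 to adult, for which the cause was not tested. All folds of ratios from d16 to adult, the folds of C1qc, Cd74, Cd163 and C1qa over Csf1r, and the shares of all genes past 2-fold under the other scalings were also added after the values were seen.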

Other observations

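Zbtb46 in every library, and Pax5 in all but d16, lay above the sum of the rest of their list. Pax5, a B cell transcription factor, was at 0.132 FPKM on d12, 0 on d16, 1.88 on d24 and 5.01 in the adult, while the other 4 B cell genes found summed to 0.0994, 0.449, 0.733 and 0.998 FPKM. Zbtb46, a dendritic cell factor, was at 17.2 FPKM on d12, 8.40 on d16, 6.19 on d24 and 11.3 in the adult, while the other 5 dendritic cell genes summed to 0.974, 0.865, 1.35 and 1.68. Of the monocyte genes, which summed to 7.26, 6.82, 5.92 and 9.04 FPKM, Plac8 was the most abundant, and Ly6c2, which marks circulating inflammatory monocytes, had no more than 2 fragments in any library.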
